A study of Mus musculus with 63 samples.

Results

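At embryonic day 18.5 (E18.5), the last day of this time course of mouse cortical development, newborn neurons (NBN) were compared with the basal progenitors (BP) from which such neurons are made. The members are 6 of the 63 libraries of the series, 3 NBN and 3 BP, taken by the cell type and day in their labels, and the comparison runs over all genes of the deposited table. Both groups came from E18.5 C57Bl/6 embryos of a Tbr2::GFP; Ski knock-out line, labelled female, and both were collected from the dissected dorsal cortex as GFP-positive cells by fluorescence-activated sorting after papain dissociation. NBN and BP therefore share the Ski deletion and the reporter, and the series has no wild type library, so all values come from Ski knock-out cells and no effect of losing Ski can be read from them. How NBN were told apart from BP within GFP-positive cells, whether embryos were pooled, and which part of Ski was deleted are not given in the sources used here. The labels do not say that the replicates came from separate embryos, so the spread between libraries may be technical in part. The p-values and standard errors pool that spread within the groups of all 63 libraries, and not within these 6 alone. The transcripts of sex-linked genes given below differ between library 1 and the other 2 of each group.

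Basal progenitors, also called intermediate progenitors, arise from radial glia, leave the ventricular surface, express the T-box factor Tbr2 (gene Eomes) and divide once or a few times to give excitatory neurons. Proneural bHLH factors such as Neurog2 drive that step, and Notch ligands on the differentiating cells hold their neighbours in the progenitor state. The daughters leave the cell cycle, migrate along radial fibres to the cortical plate, take on a layer identity, and build axons, dendrites and the first synapses. Because a GFP protein outlasts the promoter that made it, a Tbr2::GFP reporter labels both the progenitors and, for a time, their daughters.

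RNA was read as TPM, a length-corrected share of the transcripts in a library. The deposited values are TPM only, so the read depth is unknown and the precision rests on the spread between libraries. Changes are NBN minus BP on the log2(TPM + 1) scale with their standard error, which understates the change of low genes. Each p is limma's, adjusted by the Benjamini-Hochberg method over all 15231 tested genes, and a call needed an adjusted p under 0.05 together with a change of 1 or more, up or down, on the log2 scale. Pearson's r of log2(TPM + 1) over genes was 0.9934 to 0.9956 between NBN libraries, 0.9955 to 0.9959 between BP libraries and 0.945 to 0.9523 across the groups, which describes genes within these libraries. The targeted gene Ski had 40.8, 42.6 and 43.3 TPM in NBN, against 31.6, 34.0 and 31.4 TPM in BP and a log2 change of 0.38 ± 0.16 (adjusted p = 0.0701), which was not called. These values do not check the knock-out, since the deleted part is not stated and TPM counts reads over the whole gene. The libraries numbered 1 had 204 TPM of Xist, the X-inactivation RNA, in NBN and 195 TPM in BP, with a summed level of 4 Y-linked genes of 0.465 TPM in NBN and 0.638 TPM in BP. The other 2 NBN and 2 BP libraries had at most 1.39 TPM of Xist and Y-linked sums of 65.8 and 69.1 TPM in NBN and of 78.8 and 116 TPM in BP, which goes against their female label. Same-numbered NBN and BP libraries thus match in these transcripts, and with the Y-linked level as a covariate the counts given next were 962 higher and 941 lower.

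The 2 cell groups differed in 1912 of the 15231 tested genes, which is 12.6% of them. In NBN 968 genes (6.36%) were higher than in BP and 944 genes (6.2%) were lower. The balance of directions moved with the settings, with 1033 higher and 844 lower under quantile scaling, 1094 and 805 under median-of-ratios scaling, and 556 and 812 among genes with a mean of at least 5 TPM. At an adjusted p under 0.05 and any size, 2151 genes (14.1%) were higher and 3055 (20.1%) were lower. All 1912 called genes had the same direction in 3 of 3 same-numbered pairs, and in 1911 of them the 3 NBN values did not overlap the 3 BP values. Over all tested genes the groups did not overlap in 67.5%. The calls were made from these same values, so neither count is separate support. A log2 change of at least 3 was seen in 51 of the higher and 24 of the lower genes. The median change over all tested genes was -0.09. The count depends on how much weight low values get, with 509 higher and 504 lower genes at a pseudocount of 5 in place of 1.

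**Figure D1:**
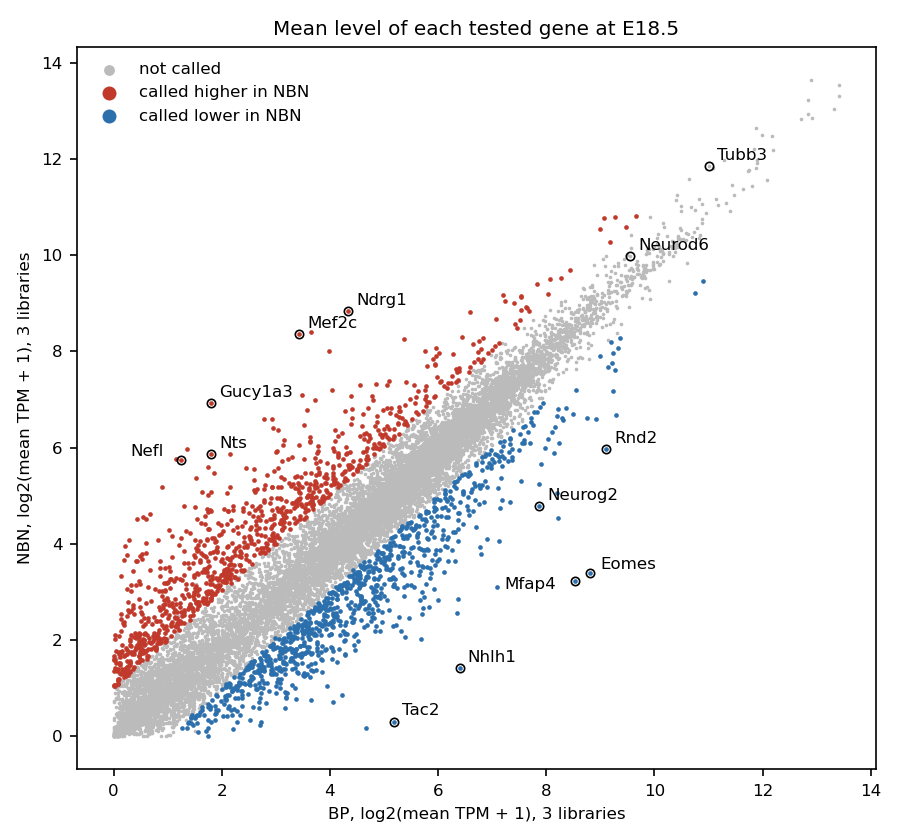
Mean level of each tested gene at E18.5, as log2(mean TPM + 1), with NBN on the vertical and BP on the horizontal axis and 3 libraries in each mean. The 968 genes called higher in NBN lie above the diagonal band and the 944 called lower lie under it; circles mark named genes.

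The gene with the largest fall was Eomes itself. It had 10.1, 12.3 and 6.13 TPM in NBN, against 463, 463 and 425 TPM in BP, a change of -5.47 ± 0.43 (adjusted p = 5.79e-14). The NBN libraries thus held a small amount of the Eomes transcript, and no NBN value came near a BP value. Whether that amount came from neurons or from BP among the sorted cells was not tested. Mfap4, which encodes a microfibril-associated protein, followed with 7.75, 9.53 and 7.78 TPM in NBN, against 353, 361 and 390.5 TPM in BP and -5.31 ± 0.26 (adjusted p = 6.47e-21). Nhlh1, a bHLH factor of early neuronal differentiation, had 1.47, 1.91 and 1.58 TPM in NBN, against 73.2, 88.4 and 88.3 TPM in BP (-4.99 ± 0.35). Tac2, the precursor of neurokinin B, had 0.205, 0.252 and 0.253 TPM in NBN, against 31.3, 38.8 and 36.1 TPM in BP (-4.87 ± 0.28). Neurod4, a proneural-class bHLH factor, had 0.125, 0.102 and 0.154 TPM in NBN, against 24.3, 25.7 and 22.8 TPM in BP (-4.49 ± 0.36). In these libraries the last pair was close to 0 in NBN. Mfng, a fringe enzyme that modifies Notch, changed by -3.99 ± 0.24, the somatostatin receptor Sstr2 by -3.69 ± 0.37, Btbd17 by -3.81 ± 0.29, the lysyl oxidase-like gene Loxl1 by -3.67 ± 0.39 and the atypical cadherin Celsr1 by -3.52 ± 0.30. The 2 remaining genes of the 12 largest falls, 0610007N19Rik and Gm9821, changed by -3.36 ± 0.32 and -3.34 ± 0.23.

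At the other end, Gucy1a3, a subunit of the nitric oxide receptor guanylate cyclase, had 137, 143 and 82.7 TPM in NBN, against 2.79, 2.22 and 2.41 TPM in BP and 5.09 ± 0.43 (adjusted p = 3.28e-13). Mef2c, a MADS-box transcription factor of maturing cortical neurons, had 373, 288 and 319 TPM in NBN, against 9.91, 9.37 and 9.84 TPM in BP and 4.93 ± 0.52 (adjusted p = 1.85e-10). The NBN values of both genes stand far above every BP value. The adaptor gene Sla had 344, 350.0 and 318 TPM in NBN, against 11.3, 14.4 and 8.95 TPM in BP (4.77 ± 0.46). Ndrg1 had 464, 447 and 459 TPM in NBN, against 21.1, 24.1 and 12.3 TPM in BP (4.56 ± 0.48). Nefl, the light neurofilament subunit, had 53.2, 53.9 and 50.4 TPM in NBN, against 1.39, 1.41 and 1.30 TPM in BP (4.50 ± 0.58). The dynein intermediate chain gene Dync1i1 changed by 4.02 ± 0.43, Ccbe1 by 4.61 ± 0.39 and Mlip by 4.28 ± 0.32. Ntsr1, a neurotensin receptor and a classical marker of layer 6 neurons, had 62.7, 53.8 and 67.4 TPM in NBN, against 1.85, 1.77 and 1.03 TPM in BP (4.62 ± 0.40). Its peptide ligand, neurotensin (Nts), had 42.4, 63.7 and 65.0 TPM in NBN, against 1.32, 4.54 and 1.56 TPM in BP (4.15 ± 0.89). The last members of the 12 largest rises, C1qa and C1qc, are complement genes of microglia and are described with the other macrophage markers.

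**Figure D2:**
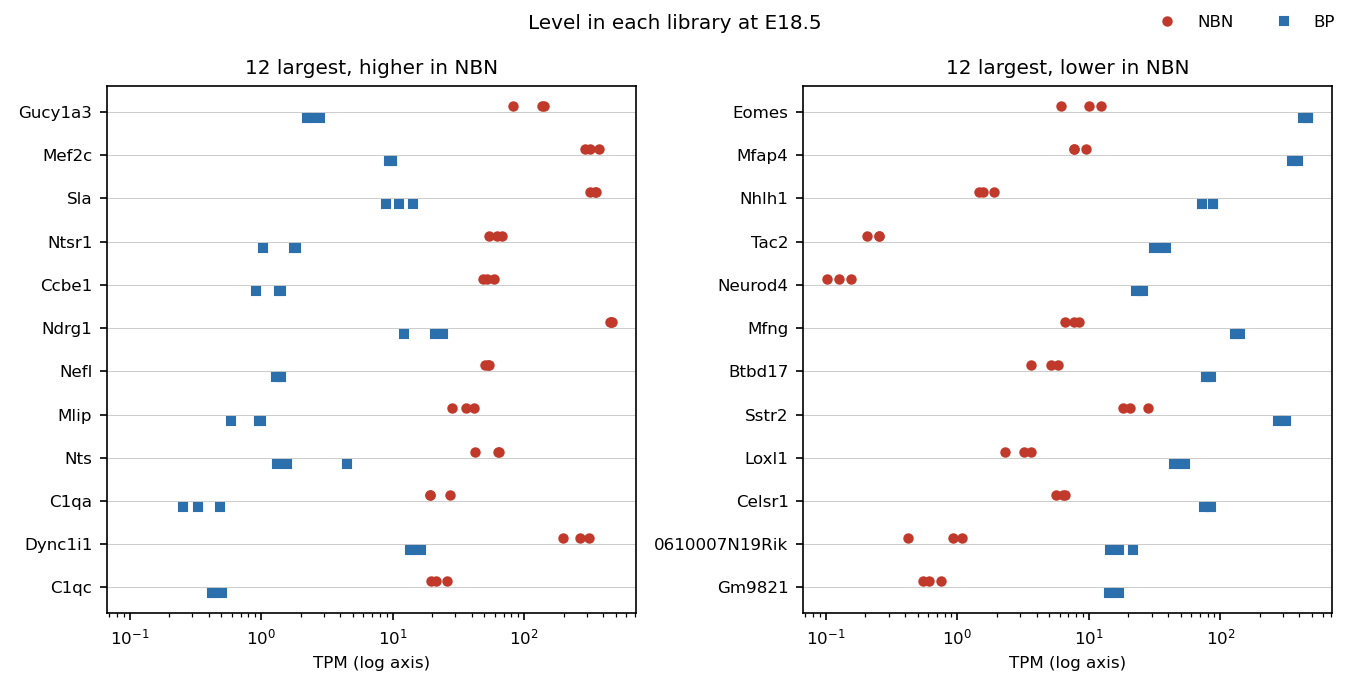
TPM in each E18.5 library, on a log axis, of the 12 widest rises and the 12 widest falls among called genes with at least 10 TPM in a group. Circles are the 3 NBN and squares the 3 BP libraries. These 24 genes were chosen among those whose groups do not overlap, so the lack of overlap is not a result.

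The promoters of the 2 largest falls and of the 2 largest rises with a matched RefSeq window are given. They are shown because members of the same direction moved together and bHLH factors bind the E-box CANNTG. Each sequence is the 250 bases before the RefSeq gene start, 5′ to 3′ on the gene's strand, in GRCm38.p6, with every E-box (CANNTG, which reads the same class on both strands) in capitals. Eomes lies on the plus strand (chr9:118477939-118478188), Nhlh1 on the minus strand (chr1:172057597-172057846), Gucy1a3, listed by RefSeq as Gucy1a1, on the minus strand (chr3:82145651-82145900) and Mef2c on the plus strand (chr13:83503784-83504033). RefSeq gives 2 start windows for Gucy1a3 and 3 for Mef2c, and the first is shown.
Eomes: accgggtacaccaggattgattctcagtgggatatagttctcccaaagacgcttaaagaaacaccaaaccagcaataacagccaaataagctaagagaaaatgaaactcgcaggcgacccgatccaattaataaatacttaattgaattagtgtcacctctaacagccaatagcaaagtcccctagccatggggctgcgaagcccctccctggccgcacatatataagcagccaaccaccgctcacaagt
Nhlh1: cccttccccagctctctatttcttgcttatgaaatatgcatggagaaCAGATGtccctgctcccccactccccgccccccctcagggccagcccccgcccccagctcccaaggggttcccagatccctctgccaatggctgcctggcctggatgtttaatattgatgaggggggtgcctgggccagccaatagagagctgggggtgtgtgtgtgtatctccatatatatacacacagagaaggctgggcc
Gucy1a3: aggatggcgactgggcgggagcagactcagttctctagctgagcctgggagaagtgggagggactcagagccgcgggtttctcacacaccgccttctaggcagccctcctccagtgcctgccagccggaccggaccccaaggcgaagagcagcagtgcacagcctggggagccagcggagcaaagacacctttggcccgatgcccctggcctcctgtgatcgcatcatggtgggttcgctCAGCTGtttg
Mef2c: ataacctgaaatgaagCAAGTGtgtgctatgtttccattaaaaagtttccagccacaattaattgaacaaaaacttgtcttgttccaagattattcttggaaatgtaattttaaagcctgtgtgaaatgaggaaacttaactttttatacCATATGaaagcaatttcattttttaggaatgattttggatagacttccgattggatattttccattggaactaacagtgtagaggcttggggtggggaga
The window of Eomes holds 0 such motifs, those of Nhlh1 and Gucy1a3 hold 1 each and that of Mef2c holds 2, and 66.0% of all 27025 promoter windows of this length hold at least 1. The match in Nhlh1 is CAGATG, a form that with its reverse complement CATCTG is in 14.48% of all windows. Among the windows of tested genes the 2 shares are 57.49% and 10.16%. These matches describe letters and not bound sites. Promoter windows were found for only 70.9% of the higher and 77.1% of the lower genes, so a comparison of motif shares between these sets is void.

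Most listed genes of basal progenitors were lower in NBN. Of the 20 tested genes of the basal progenitor and proneural list, 17 were lower and 0 were higher, with a median change of -2.51. Among all tested genes 6.36% were higher and 6.2% lower, and the count of each list below stands beside those shares. The list was chosen with earlier results of these data known. It includes Eomes, Mfap4, Nhlh1, Tac2 and others of the largest falls above, so its count is not separate support. Neurog2, the bHLH factor that commits progenitors to excitatory neurons, had 26.0, 30.2 and 23.7 TPM in NBN, against 240.4, 253 and 203 TPM in BP (-3.08 ± 0.30, adjusted p = 2.66e-11). Pax6, a homeobox factor shared with radial glia, had 12.501, 10.5 and 11.3 TPM in NBN, against 79.8, 74.7 and 81.2 TPM in BP (-2.68 ± 0.31, adjusted p = 1.37e-09). Gadd45g had 19.1, 20.4 and 18.9 TPM in NBN, against 102, 111 and 95.2 TPM in BP (-2.34 ± 0.23). Neurod1 had 45.2, 46.2 and 56.3 TPM in NBN, against 219.7, 232 and 260.5 TPM in BP (-2.25 ± 0.32). The zinc finger gene Insm1, which promotes basal progenitor formation, had 84.4, 88.7 and 109.5 TPM in NBN, against 324, 307 and 319.7 TPM in BP (-1.75 ± 0.20). The levels in NBN differed between these genes, with Insm1 at 94.2 TPM and Gadd45g at 19.5 TPM on average. Members that were not called included Hes6 (-0.66 ± 0.17) and the Notch ligand gene Dll1 (-0.24 ± 0.17).

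In the Notch pathway, 2 of 20 tested genes were higher in NBN (10%) and 6 were lower (30%), with a median of -0.35. The shares among all tested genes were 6.36% and 6.2%. The receptor gene Notch1 had 8.40, 7.53 and 5.52 TPM in NBN, against 27.6, 29.0 and 27.0 TPM in BP (-1.84 ± 0.25, adjusted p = 4.56e-08). The ligand gene Dll4 changed by -1.68 ± 0.20, and the ligand gene Dll3, the target gene Hey1 and the nuclear effector gene Rbpj were the other lower members beside Mfng. Dtx4, a Deltex-family ubiquitin ligase, went the other way, with 144.7, 117 and 144 TPM in NBN, against 10.1, 11.7 and 8.79 TPM in BP (3.61 ± 0.25, adjusted p = 1.18e-15), and the ligand gene Jag2 was the other higher member. Hes5, a Notch target of radial glia, was at 4.88, 4.37 and 4.09 TPM in NBN, against 3.11, 3.64 and 2.61 TPM in BP, which is low in both groups (0.41 ± 0.45, adjusted p = 0.552). The call of Dll4, a gene with at most 5.7 TPM, was lost at a pseudocount of 5.

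Cell cycle genes fell without exception in the G2 and M phase list, where 22 of 22 tested genes were lower in NBN with a median of -2.09. Top2a, the topoisomerase of dividing cells, had 15.7, 9.37 and 9.48 TPM in NBN, against 84.5, 58.1 and 73.3 TPM in BP (-2.57 ± 0.43). Mki67, the proliferation marker Ki-67, had 7.14, 4.47 and 3.99 TPM in NBN, against 40.2, 28.3 and 30.7 TPM in BP (-2.48 ± 0.58, adjusted p = 5.94e-04). The mitotic kinase gene Cdk1 had 9.99, 6.28 and 7.36 TPM in NBN, against 50.2, 37.3 and 39.0 TPM in BP (-2.29 ± 0.31). Tpx2, a spindle assembly factor, changed by -2.35 ± 0.25, the anaphase activator Cdc20 by -2.29 ± 0.27, Ube2c by -2.18 ± 0.25 and Birc5 by -2.04 ± 0.24. In each of these 7 genes the library numbered 1 was the highest of the 3 BP libraries. Mitotic transcripts were not at 0 in NBN, with 3.99 to 7.14 TPM of Mki67.

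Of the 24 S phase and origin licensing genes, 13 were lower and 0 were higher (median -1.12). Mcm2 of the replicative helicase had 15.1, 13.1 and 12.7 TPM in NBN, against 56.7, 52.6 and 45.1 TPM in BP (-1.84 ± 0.22). The maintenance methylation cofactor Uhrf1 had 12.3, 9.26 and 9.51 TPM in NBN, against 44.9, 37.2 and 35.7 TPM in BP (-1.83 ± 0.27), the ribonucleotide reductase gene Rrm1 changed by -1.39 ± 0.18 and Mcm6 by -1.44 ± 0.22. Pcna, the replication clamp, had 89.3, 80.3 and 83.4 TPM in NBN, against 139, 118 and 126 TPM in BP and did not reach the size for a call (-0.59 ± 0.20, adjusted p = 0.0178). Among 19 G1 cyclins, kinases and inhibitors 9 were lower and 0 were higher (median -0.87), and 5 were lower at a pseudocount of 5. The G1 kinase gene Cdk6 had 2.12, 1.64 and 1.93 TPM in NBN, against 18.2, 14.1 and 16.9 TPM in BP (-2.59 ± 0.41). The cyclin gene Ccnd2 had 30.4, 23.7 and 23.2 TPM in NBN, against 152, 139.9 and 129.7 TPM in BP (-2.41 ± 0.28). Cdk2 changed by -2.21 ± 0.23, the inhibitor gene Cdkn2c by -2.37 ± 0.28 and the antiproliferative gene Btg2 by -2.08 ± 0.25. The inhibitor gene Cdkn1c had 119, 127 and 110.3 TPM in NBN, against 68.4, 85.3 and 58.0 TPM in BP, a difference of 0.76 ± 0.30 (adjusted p = 0.0442) that is under the size for a call.

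Radial glia genes were mixed. Of 22 tested, 3 were higher and 6 were lower in NBN, with a median of -0.32, and the summed level of the list was 949 to 1223 TPM in NBN libraries, against 1614 to 1754 TPM in BP libraries. Sox2 had 11.4, 9.68 and 7.92 TPM in NBN, against 44.7, 37.5 and 51.1 TPM in BP (-2.09 ± 0.28), Sox1 changed by -1.62 ± 0.23, Emx2 by -1.81 ± 0.22, and Lhx2 had 240.5, 237 and 264 TPM in NBN, against 603, 611 and 599 TPM in BP (-1.29 ± 0.23). The orphan receptor gene Nr2e1 was also lower, and so was the intermediate filament gene Vim (-1.05 ± 0.24), whose call was lost without NBN 3 (-0.85) or BP 2 (-0.93). Ptprz1, a receptor phosphatase also made by neurons, had 188, 172 and 167 TPM in NBN, against 66.0, 58.2 and 61.3 TPM in BP (1.49 ± 0.33), and Ednrb and the matrix gene Tnc (1.32 ± 0.39) were the other higher members. The call of Tnc was lost without NBN 1 (1.01, adjusted p = 0.0683). Fabp7, a radial glial lipid-binding protein, overlapped between the groups, with 186, 113 and 86.7 TPM in NBN, against 213, 162 and 199.6 TPM in BP (-0.63 ± 0.32, adjusted p = 0.132).

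Most transcription factors of postmitotic cortical neurons were not called. In that list of 18, 2 genes were higher and 4 lower in NBN (median 0.21). Mef2c, described above, was among the higher ones. Neurod6 was at 1095, 1115 and 823 TPM in NBN, against 769, 778 and 710.3 TPM in BP (0.41 ± 0.56, adjusted p = 0.634) and Neurod2 at 547, 545 and 559 TPM in NBN, against 451, 443 and 422 TPM in BP (0.33 ± 0.45, adjusted p = 0.646), so both bHLH genes were abundant in the progenitor libraries too. Sox4 had 716, 783 and 719 TPM in NBN, against 935, 858 and 936 TPM in BP (-0.30 ± 0.19, adjusted p = 0.246). The lower ones were the nuclear factor I genes Nfia, with 27.2, 33.5 and 23.4 TPM in NBN, against 75.7, 86.8 and 89.2 TPM in BP (-1.56 ± 0.45), and Nfib, with 193, 219 and 173 TPM in NBN, against 594, 593 and 661 TPM in BP (-1.66 ± 0.55, adjusted p = 0.0148), beside St18 (-1.71 ± 0.46) and Sox11 (-1.003 ± 0.33). The call of Sox11 was lost without NBN 3 (-0.95) or BP 3 (-0.98).

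Layer identity genes gave calls in both directions, with more of them higher. Of the 16 upper-layer genes, 8 were higher and 1 was lower (median 0.85). The adaptor gene Dok5 had 254, 221 and 269 TPM in NBN, against 64.6, 66.4 and 61.2 TPM in BP (1.93 ± 0.25). The LIM-only factor Lmo4 had 486, 478 and 458 TPM in NBN, against 183, 226 and 189 TPM in BP (1.25 ± 0.18). Rasgrf2, a Ras exchange factor of upper-layer neurons, had 9.42, 6.14 and 11.7 TPM in NBN, against 0.0892, 0.133 and 0.0737 TPM in BP (3.16 ± 0.26). Rasgrf2 was near 0 TPM in BP and present in every NBN library. Unc5d, a netrin receptor gene of the subventricular zone, was the lower member, with 17.2, 11.1 and 20.4 TPM in NBN, against 124, 97.0 and 135.1 TPM in BP (-2.82 ± 0.44). Cux1 (0.51 ± 0.13) and Cux2 (0.42 ± 0.25), classical upper-layer homeobox genes, and Pou3f2 (-0.95 ± 0.41) were not called. At a pseudocount of 5 the number of higher upper-layer genes was 5.

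Among the 16 deep-layer genes, 6 were higher and 2 were lower (median 0.42). Beside Ntsr1, the higher members included the LIM-domain binding gene Ldb2, with 94.5, 112 and 81.6 TPM in NBN, against 7.66, 7.18 and 5.15 TPM in BP (3.67 ± 0.39). The nuclear receptor gene Nr4a2 had 24.9, 39.6 and 23.3 TPM in NBN, against 4.80, 6.48 and 6.21 TPM in BP (2.12 ± 0.36). The sulfotransferase gene Hs3st4 had 15.1, 35.7 and 9.33 TPM in NBN, against 2.495, 3.47 and 2.93 TPM in BP (2.21 ± 0.40). Pcp4 had 31.5, 36.9 and 36.2 TPM in NBN, against 136, 129 and 148 TPM in BP (-1.95 ± 0.47). Zfpm2, a cofactor of corticothalamic neurons, had 8.83, 13.6 and 8.86 TPM in NBN, against 20.4, 25.6 and 27.3 TPM in BP (-1.17 ± 0.35). Tbr1, a layer 6 factor, had 154, 177 and 146 TPM in NBN, against 191, 187 and 207 TPM in BP (-0.29 ± 0.40, adjusted p = 0.636). Bcl11b, the subcerebral factor Ctip2, had 49.2, 88.8 and 36.8 TPM in NBN, against 45.6, 63.2 and 28.4 TPM in BP (0.32 ± 0.43, adjusted p = 0.640), and its groups overlapped. In Bcl11b, Hs3st4, Nr4a2 and Tle4 the NBN library numbered 2 was the highest, and without it the change of Bcl11b was -0.03.

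Genes of the neuronal cytoskeleton and growth cone were higher or not called, with 9 of 28 higher and 0 lower (median 0.77). The tubulin genes Tubb3, with 3516, 3716 and 3849 TPM in NBN, against 1982, 2171 and 1993 TPM in BP (0.85 ± 0.26, adjusted p = 0.00727), and Tuba1a, with 12107, 12681 and 13532 TPM in NBN, against 7272, 8025 and 7459 TPM in BP (0.75 ± 0.24), were very abundant in both groups and under the size for a call. Gap43, a growth cone protein, had 715, 752 and 697 TPM in NBN, against 253, 303 and 249 TPM in BP (1.43 ± 0.34). Stmn2, a tubulin-binding stathmin, had 1468, 1571 and 1439.6 TPM in NBN, against 479, 539 and 513 TPM in BP (1.55 ± 0.38). Mapt, which encodes tau, had 1742, 1717 and 1792 TPM in NBN, against 502, 590.0 and 508 TPM in BP (1.72 ± 0.45). Nefm, the medium neurofilament subunit, had 85.2, 91.8 and 74.0 TPM in NBN, against 6.48, 8.33 and 5.41 TPM in BP (3.46 ± 0.44), and Map1b (1.16 ± 0.37), Dclk1 (1.25 ± 0.25) and Stmn4 (1.24 ± 0.27) changed less.

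Radial migration genes gave calls in both directions. Of 18, 2 were higher (11.1%) and 6 were lower (33.3%) in NBN, with a median of 0.24. Among all tested genes 6.36% were higher and 6.2% lower. Both higher members belong to the Reelin pathway, in which neurons read the layer-organising protein Reelin: the intracellular adaptor Dab1 had 313, 296 and 306 TPM in NBN, against 45.1, 41.1 and 34.8 TPM in BP (2.89 ± 0.28, adjusted p = 1.42e-11). The receptor gene Vldlr had 45.3, 42.8 and 42.5 TPM in NBN, against 15.7, 14.8 and 16.2 TPM in BP (1.43 ± 0.31). The second Reelin receptor gene, Lrp8, was lower, with 148, 134 and 158 TPM in NBN, against 371, 336 and 418 TPM in BP (-1.35 ± 0.26). Rnd2, a small GTPase that proneural factors use to start migration, had 52.7, 58.2 and 73.2 TPM in NBN, against 536, 575 and 548 TPM in BP (-3.16 ± 0.30, adjusted p = 1.79e-11). Sema3c had 79.3, 56.8 and 151 TPM in NBN, against 451, 344 and 649.7 TPM in BP (-2.39 ± 0.44). The chemokine receptor gene Cxcr4 had 34.4, 32.2 and 37.6 TPM in NBN, against 102, 113 and 110.3 TPM in BP (-1.61 ± 0.22).

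In axon guidance, 2 of 35 genes were higher and 4 were lower (median 0.05), the share of higher genes being close to that over all genes. Unc5c, a repulsive netrin receptor, had 21.8, 15.99 and 23.7 TPM in NBN, against 2.14, 2.29 and 1.75 TPM in BP (2.80 ± 0.51). The ephrin gene Efna3 had 56.1, 59.9 and 63.6 TPM in NBN, against 14.3, 22.2 and 11.2 TPM in BP (1.90 ± 0.35). Epha4 had 83.2, 69.8 and 104 TPM in NBN, against 273, 277 and 311 TPM in BP (-1.75 ± 0.27) and Ephb3 changed by -1.37 ± 0.20, a call that was lost at a pseudocount of 5. The netrin receptor gene Dcc and Sema6d were the other lower members. Robo1 had 134.8, 138 and 109 TPM in NBN, against 90.0, 84.2 and 87.8 TPM in BP and was not called (0.53 ± 0.36, adjusted p = 0.275).

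The receptor and postsynapse list had the most rises of the neuronal lists, 17 of 28 higher and 1 lower (median 1.11). The metabotropic glutamate receptor gene Grm5 had 27.6, 30.6 and 21.2 TPM in NBN, against 1.37, 1.65 and 1.39 TPM in BP (3.46 ± 0.45). The GABA-A receptor subunit gene Gabra5 had 26.2, 25.8 and 26.3 TPM in NBN, against 1.82, 1.79 and 1.93 TPM in BP (3.25 ± 0.39). The NMDA receptor subunit gene Grin2b had 69.7, 61.9 and 61.5 TPM in NBN, against 11.6, 12.9 and 13.7 TPM in BP (2.25 ± 0.48). The kinase gene Camk2a had 11.4, 12.03 and 16.48 TPM in NBN, against 1.80, 1.44 and 1.18 TPM in BP (2.53 ± 0.28). Its partner Camk2b had 515, 523 and 541 TPM in NBN, against 130.0, 166 and 151 TPM in BP (1.82 ± 0.47). Lrrtm4, a synaptic organiser, was the lower member, with 5.37, 8.64 and 4.72 TPM in NBN, against 26.9, 24.6 and 29.2 TPM in BP (-1.98 ± 0.30). The AMPA receptor subunit gene Gria2 overlapped between the groups, with 162, 128 and 137 TPM in NBN, against 127, 105 and 144 TPM in BP (0.19 ± 0.59, adjusted p = 0.851).

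Of 20 synaptic vesicle and release genes, 4 were higher and 2 lower (median 0.67). The calcium sensor gene Syt1 had 130.2, 130.2 and 117 TPM in NBN, against 26.1, 30.4 and 24.4 TPM in BP (2.18 ± 0.44). Syt4 had 497, 457 and 398 TPM in NBN, against 97.0, 101 and 87.1 TPM in BP (2.23 ± 0.49). The complexin gene Cplx1 had 165.3, 172 and 159 TPM in NBN, against 60.9, 64.0 and 72.4 TPM in BP (1.32 ± 0.31). The vesicular glutamate transporter gene Slc17a6 was lower, with 38.1, 30.4 and 34.2 TPM in NBN, against 100.1, 91.5 and 102 TPM in BP (-1.49 ± 0.36), as was the synapsin gene Syn2, with 23.1, 25.7 and 26.7 TPM in NBN, against 68.0, 70.7 and 75.9 TPM in BP (-1.47 ± 0.29), whereas Slc17a7, the transporter of mature cortical neurons, had 19.1, 28.2 and 17.3 TPM in NBN, against 10.9, 15.47 and 10.6 TPM in BP and was not called (0.75 ± 0.43, adjusted p = 0.189). Among 29 voltage-gated and potassium channel genes, 10 were higher and 0 lower (median 0.76), with 6 higher at a pseudocount of 5. Kcnq5, of the M-current channels, had 19.7, 20.3 and 13.1 TPM in NBN, against 1.58, 1.82 and 1.63 TPM in BP (2.78 ± 0.29). Kcnma1, the large-conductance potassium channel, had 16.4, 13.9 and 14.2 TPM in NBN, against 1.82, 2.29 and 1.71 TPM in BP (2.43 ± 0.36). The call of Hcn2 (1.18 ± 0.22) was lost at a pseudocount of 5.

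Neuropeptides and their receptors held some of the widest changes, with 7 of 22 tested genes higher and 3 lower (median 0.42). Beside Nts and Ntsr1, Npy had 39.0, 79.8 and 22.4 TPM in NBN, against 2.13, 2.13 and 2.79 TPM in BP (3.66 ± 0.56, adjusted p = 6.94e-07). Its receptor gene Npy1r had 26.2, 24.3 and 23.9 TPM in NBN, against 3.61, 2.64 and 3.73 TPM in BP (2.58 ± 0.31). The NBN libraries varied more in Npy than in Npy1r. Cck had 119, 83.5 and 274 TPM in NBN, against 32.3, 27.4 and 24.3 TPM in BP (2.29 ± 0.50), and here the NBN library numbered 3 was the highest. The somatostatin receptor genes went in opposite directions, Sstr1 with 15.0, 11.6 and 20.7 TPM in NBN, against 2.23, 2.25 and 3.73 TPM in BP (2.15 ± 0.32) and Sstr2 lower as given before. Gcg, the proglucagon gene, had 1.60, 1.47 and 1.28 TPM in NBN, against 12.7, 10.9 and 9.33 TPM in BP (-2.28 ± 0.34).

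Regulators of RNA and chromatin changed in part. In the neural splicing list 1 of 23 genes was higher (4.35%) and 5 were lower (21.7%), with a median of -0.14. Under quantile or median-of-ratios scaling 3 were lower. Ptbp1, the splicing repressor that is switched off in neurons, had 57.3, 51.8 and 53.3 TPM in NBN, against 144, 152 and 147 TPM in BP (-1.43 ± 0.17, adjusted p = 3.94e-09). Its neuronal paralog Ptbp2 had 218, 219.8 and 205 TPM in NBN, against 249, 234 and 256 TPM in BP (-0.20 ± 0.20, adjusted p = 0.497). The RNA-binding genes Elavl2 (-1.42 ± 0.32) and Elavl4 (-1.23 ± 0.37) were lower and Khdrbs2 was higher (1.22 ± 0.26). Of 12 genes of the BAF chromatin remodelling complex, which exchanges subunits when progenitors become neurons, 1 was higher and 3 were lower. These are 8.33% and 25%, while 6.36% of all tested genes were higher and 6.2% lower. The higher share of the BAF list is thus near that over all tested genes, and that of the splicing list is under it. The progenitor subunit gene Actl6a had 28.0, 30.1 and 28.5 TPM in NBN, against 73.5, 72.0 and 66.9 TPM in BP (-1.26 ± 0.14). Ss18 had 17.8, 17.47 and 14.8 TPM in NBN, against 48.8, 44.2 and 50.9 TPM in BP (-1.47 ± 0.15). The neuronal subunit gene Dpf1 had 286, 291 and 274 TPM in NBN, against 97.4, 107 and 91.2 TPM in BP (1.52 ± 0.24). Its relative Dpf3 was lower, with 7.52, 8.56 and 11.1 TPM in NBN, against 24.8, 28.8 and 34.5 TPM in BP (-1.60 ± 0.40). Actl6b, the neuronal counterpart of Actl6a, had 342, 353 and 380.4 TPM in NBN, against 208, 219 and 203 TPM in BP and was not called (0.77 ± 0.36, adjusted p = 0.0993).

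The partners of the SKI protein, a co-repressor that binds SMAD proteins and chromatin complexes, had 2 of 24 genes higher and 2 lower (8.33% each, median -0.20), which is near the shares over all tested genes. Smad3, a transducer of TGF-beta signals, had 21.5, 16.3 and 17.54 TPM in NBN, against 3.75, 4.01 and 3.16 TPM in BP (2.06 ± 0.20, adjusted p = 1.97e-11). The helicase gene Chd5, a neuronal NuRD subunit, had 41.0, 38.3 and 49.2 TPM in NBN, against 13.4, 13.4 and 15.9 TPM in BP (1.52 ± 0.33). The deacetylase gene Hdac1 had 24.7, 24.3 and 25.0 TPM in NBN, against 59.9, 60.4 and 58.8 TPM in BP (-1.24 ± 0.14, adjusted p = 3.92e-10), and its paralog Hdac2 had 385, 372 and 339 TPM in NBN, against 409, 380.1 and 421 TPM in BP (-0.14 ± 0.15, adjusted p = 0.526). The NuRD subunit gene Mta2 passed the p threshold with 114, 113 and 118 TPM in NBN, against 212, 209.5 and 214 TPM in BP but not the size (-0.88 ± 0.10, adjusted p = 3.58e-10). The paralog of Ski, Skil, had 28.3, 29.6 and 24.4 TPM in NBN, against 29.6, 29.3 and 35.5 TPM in BP (-0.19 ± 0.31). In the TGF-beta and BMP list 1 of 21 was higher (4.76%) and 2 were lower (9.52%), with a median of -0.10. Over all tested genes the shares were 6.36% and 6.2%. The higher one was the receptor gene Bmpr1b (1.46 ± 0.36). The lower ligand gene Tgfb2 had 4.84, 5.17 and 5.64 TPM in NBN, against 21.1, 22.8 and 28.3 TPM in BP (-2.003 ± 0.32). Ltbp3, whose protein holds latent TGF-beta in the matrix, was also lower, with 5.72, 6.08 and 4.14 TPM in NBN, against 52.1, 54.3 and 48.3 TPM in BP (-3.07 ± 0.30).

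Of 19 cholesterol synthesis genes, 5 were higher and 0 lower (median 0.71). Hmgcs1, an early enzyme of the pathway, had 664, 658 and 689 TPM in NBN, against 218, 235 and 224 TPM in BP (1.57 ± 0.20, adjusted p = 1.98e-08). Fdps had 446, 451 and 548 TPM in NBN, against 188, 217 and 187 TPM in BP (1.28 ± 0.17). Sc4mol, also known as Msmo1, had 114, 124 and 128 TPM in NBN, against 43.8, 67.0 and 52.5 TPM in BP (1.17 ± 0.17). Of 21 glycolysis and hypoxia genes 1 was higher, the phosphofructokinase gene Pfkp (1.62 ± 0.37), and 0 were lower (median 0.08). The higher share, 4.76%, is under the 6.36% over all tested genes. In the immediate early and dissociation list 3 of 21 were higher and 1 was lower (median 0.44). Klf6 had 34.1, 41.6 and 31.3 TPM in NBN, against 7.41, 9.56 and 9.22 TPM in BP (1.91 ± 0.25), and Egr3 and Npas4 were the other higher ones, both with their highest value in NBN library 3 and both not called without it (0.85 for Egr3 and 0.91 for Npas4), which left 1 higher gene. With the replicate number as a block, fitted to only the E18.5 NBN and BP libraries, 5 genes of this list were higher.

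**Figure D3:**
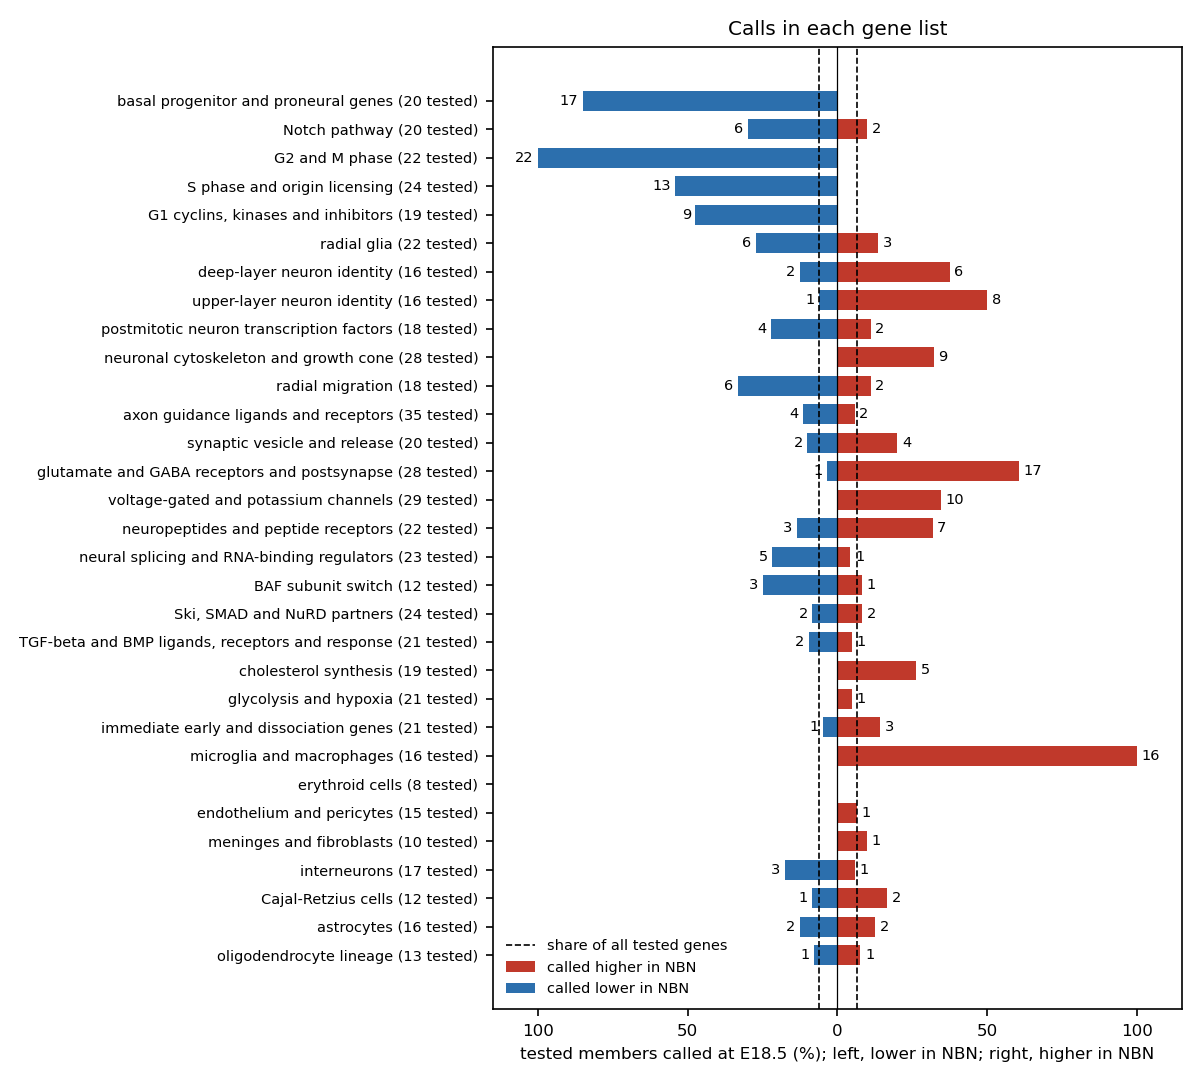
Share of the tested members of each gene list that were called at E18.5, to the right for genes higher in NBN and to the left for genes lower in NBN, with the number of genes at the end of each bar. Dashed lines give the shares over all tested genes, 6.36% higher and 6.2% lower; the G2 and M phase list reaches 22 of 22 lower and the microglia and macrophage list 16 of 16 higher.

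Markers of cells other than NBN and BP were read in the same libraries. In bulk RNA, fewer cells of a type and less RNA per cell cannot be told apart. The macrophage markers moved with the groups: 16 of 16 tested microglia and macrophage genes were higher in NBN (median 3.14), and their summed level was 164.8 to 225 TPM in NBN libraries, against 9.47 to 10.8 TPM in BP libraries. All 16 were above 1 TPM in every NBN library and 2 were in every BP library. C1qa had 19.3, 27.2 and 19.1 TPM in NBN, against 0.331, 0.488 and 0.253 TPM in BP (4.06 ± 0.59, adjusted p = 2.31e-07). C1qb had 19.3, 26.0 and 20.3 TPM in NBN, against 0.237, 0.584 and 0.725 TPM in BP (3.92 ± 0.60). C1qc had 21.5, 26.2 and 19.8 TPM in NBN, against 0.501, 0.422 and 0.437 TPM in BP (4.004 ± 0.59). The growth factor receptor gene Csf1r had 16.53, 18.6 and 12.7 TPM in NBN, against 2.47, 2.29 and 2.11 TPM in BP (2.35 ± 0.38). The fractalkine receptor gene Cx3cr1 had 10.2, 10.1 and 6.86 TPM in NBN, against 0.796, 0.821 and 0.804 TPM in BP (2.46 ± 0.42). Pf4 had 14.1, 18.98 and 14.6 TPM in NBN, against 0.147, 0.217 and 0.299 TPM in BP (3.78 ± 0.59). The mannose receptor gene Mrc1, a marker of macrophages at the brain borders, had 10.6, 13.3 and 11.3 TPM in NBN, against 0.0322, 0.0949 and 0.295 TPM in BP (3.48 ± 0.40). The number higher was 15 without BP library 1 or without BP library 2, and 11 at a pseudocount of 5, while 0 of the 16 reached a mean of 5 TPM over the series. The part of these cells in the other NBN changes was not tested.

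Erythroid genes were present in both groups, with sums of 274 to 654 TPM in NBN and 217 to 630 TPM in BP, and 0 of 8 tested were called. Endothelial and pericyte genes summed to 36.7 to 51.4 TPM in NBN, against 14.3 to 35.1 TPM in BP. The pericyte gene Rgs5 was the 1 of 15 called higher (1.23 ± 0.34), a share of 6.67% near the 6.36% over all tested genes. Meningeal and fibroblast genes summed to 70.9 to 81.5 TPM in NBN, against 30.4 to 45.2 TPM in BP, and 1 of 10 was higher, the fibronectin gene Fn1, with 36.7, 31.2 and 41.7 TPM in NBN, against 6.56, 6.12 and 5.22 TPM in BP (2.43 ± 0.31). Interneuron genes summed to 50.2 to 55.0 TPM in NBN, against 106 to 151 TPM in BP. Of 17 tested, 1 was higher (5.88%) and 3 were lower (17.6%), beside 6.36% and 6.2% of all tested genes. The lower gene Prox1, a homeobox gene also made by hippocampal progenitors, had 4.62, 4.20 and 9.63 TPM in NBN, against 53.1, 48.7 and 86.1 TPM in BP (-3.19 ± 0.46). Prox1 alone thus makes up a large part of the difference between the interneuron sums. Dlx1, a defining interneuron factor, was at 4.27, 5.13 and 4.81 TPM in NBN, against 1.98, 2.79 and 4.54 TPM in BP (0.53 ± 0.60, adjusted p = 0.560).

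Astrocyte genes summed to 337 to 433 TPM in NBN and 258 to 282 TPM in BP, with 2 of 16 tested higher and 2 lower. The glutamate transporter gene Slc1a2 had 18.1, 20.1 and 15.9 TPM in NBN, against 74.4, 75.0 and 87.1 TPM in BP (-2.07 ± 0.43). Gfap, an intermediate filament gene, had 2.02, 2.04 and 1.61 TPM in NBN, against 10.1, 8.51 and 11.9 TPM in BP (-1.94 ± 0.28). Sparcl1 had 78.9, 95.5 and 72.6 TPM in NBN, against 33.2, 21.5 and 38.3 TPM in BP (1.41 ± 0.33). Apoe had 143, 184 and 141 TPM in NBN, against 45.7, 47.9 and 44.4 TPM in BP (1.73 ± 0.46). The difference of Apoe alone is about as large as the difference between the mean astrocyte sums. Oligodendrocyte lineage genes summed to 158 to 175.02 TPM in NBN and 167 to 171 TPM in BP, with 1 of 13 higher, Olig1, with 22.1, 10.3 and 17.2 TPM in NBN, against 3.13, 1.90 and 2.58 TPM in BP (2.26 ± 0.42), and 1 lower. The 1 higher and 1 lower oligodendrocyte lineage gene are 7.69% each, near the 6.36% and 6.2% over all tested genes. Under quantile or median-of-ratios scaling 2 of the 13 were higher and 0 lower.

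Cajal-Retzius cells, the early Reelin-secreting neurons of the cortical surface, also pass through a Tbr2-expressing stage. Their 12 genes summed to 366 to 412 TPM in NBN and 345 to 434 TPM in BP, with 2 higher (16.7%) and 1 lower (8.33%). The shares among all tested genes were 6.36% and 6.2%, so the lower share is near that background. Reln itself had 180.5, 180.2 and 174 TPM in NBN, against 104, 139.9 and 107 TPM in BP (0.61 ± 0.42, adjusted p = 0.284). Trp73, a defining factor of these cells, had 24.4, 27.7 and 23.0 TPM in NBN, against 28.0, 40.3 and 26.1 TPM in BP and overlapped (-0.30 ± 0.43, adjusted p = 0.656), and so did Lhx5, with 7.14, 8.04 and 7.95 TPM in NBN, against 8.54, 11.4 and 7.46 TPM in BP (-0.20 ± 0.45), and Cacna2d2, with 25.0, 25.3 and 19.8 TPM in NBN, against 19.2, 23.9 and 17.52 TPM in BP (0.20 ± 0.25). Calb2, the calcium buffer calretinin, was lower, with 37.4, 49.2 and 57.1 TPM in NBN, against 134, 152 and 149 TPM in BP (-1.59 ± 0.48, adjusted p = 0.00664). Ndnf (1.11 ± 0.33) and Spock1 (1.25 ± 0.50, adjusted p = 0.0480) were higher, and the call of Spock1 was lost in each of the 6 fits that left out 1 library, with changes of 1.05 to 1.43 and adjusted p of 0.0501 to 0.172. Lhx1 (-0.66 ± 0.51), Ebf1 (-0.90 ± 0.52), Ebf2 (0.29 ± 0.36), Ebf3 (-0.58 ± 0.51) and Car10 (0.64 ± 0.30) were not called.

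**Figure D4:**
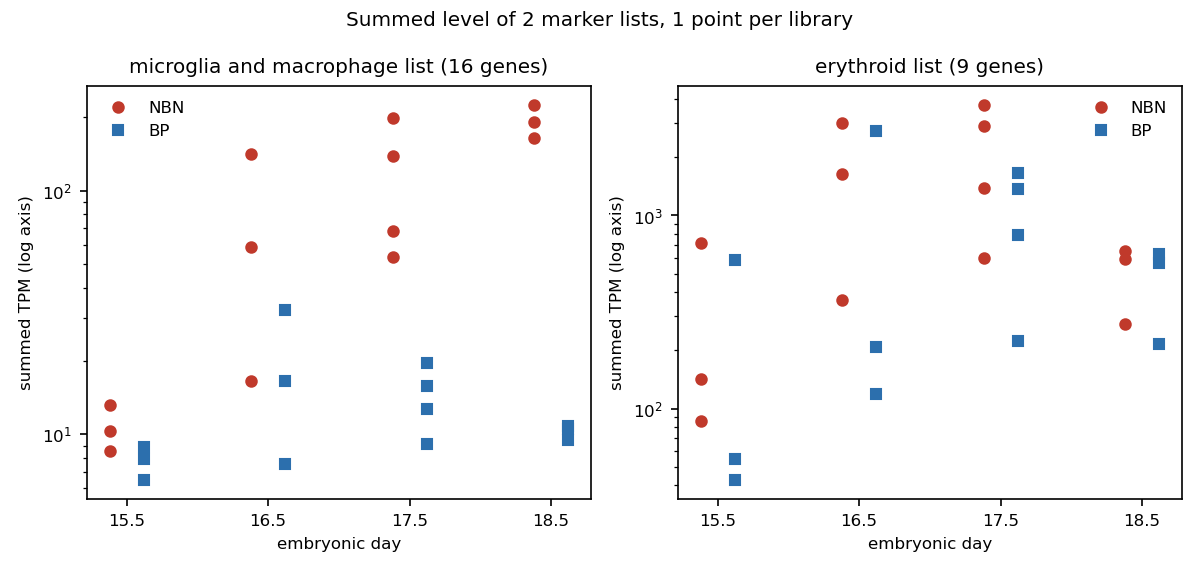
Summed TPM, on a log axis, of the microglia and macrophage list and of the erythroid list in each NBN (circles, left of each day) and BP (squares, right) library by embryonic day. At E18.5 the macrophage sums are 164.8 to 225 TPM in NBN and 9.47 to 10.8 TPM in BP, while the erythroid sums overlap.

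The genes that set NBN apart from BP at E18.5 were largely those of the days before. The same call rule gave 1044 higher (6.85% of tested genes) and 703 lower genes (4.62%) at E15.5, 11.5% in all. At E16.5 it gave 796 higher (5.23%) and 651 lower (4.27%), 9.5% in all. At E17.5 it gave 838 higher (5.5%) and 1035 lower (6.8%), 12.3% in all. Of the 968 genes higher at E18.5, 620 (64%) were higher at E15.5, 644 (66.5%) at E16.5 and 741 (76.5%) at E17.5, which are 59.4%, 80.9% and 88.4% of the genes higher on those days. Of the 944 lower genes, 545 (57.7%), 595 (63%) and 845 (89.5%) were lower on the same days, which are 77.5%, 91.4% and 81.6% of those days' lists. On all 3 earlier days 531 of the higher and 485 of the lower genes were called the same way, and 153 higher and 86 lower genes were called on none of them. Being called on 1 day and not on another does not show that the days differ, so the difference itself was tested next.

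That test set the change at E18.5 against the mean change of E15.5, E16.5 and E17.5, each day having its own BP libraries. It gave 28 genes with a larger value at E18.5 (0.184% of tested genes) and 35 with a smaller one (0.23%), and 910 genes had an unadjusted p under 0.05. With only the libraries of that contrast the counts were 39 and 47. With the replicate number as a block within each day in those same libraries they were 90 and 73. The result leans on E15.5, since without that day 3 genes remained larger and 0 smaller, and without E17.5 there were 90 and 94. Leaving out single E18.5 libraries also moved the counts: 18 larger and 17 smaller without NBN 1, 15 and 13 without NBN 3, 26 and 48 without NBN 2, 16 and 28 without BP 1, 15 and 28 without BP 2, and 12 and 17 without BP 3.

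Nts had the largest such difference, 5.05 ± 1.02 (adjusted p = 0.00593). The peptide gene was called lower in NBN than in BP at E15.5 and was far higher at E18.5. Neither E16.5 (adjusted p = 0.57) nor E17.5 (adjusted p = 0.51) gave a call, and the E16.5 BP libraries ran from 0.0926 to 34.2 TPM. The changes of Nts were -2.51, -0.83, 0.66 and 4.15 from E15.5 to E18.5. Its mean level in NBN was 1.84, 5.20, 34.1 and 57.1 TPM on those days, against 15.2, 20.3, 18.9 and 2.47 TPM in BP. The means were thus highest at E18.5 in NBN and lowest at E18.5 in BP. The call was lost without E15.5, with a difference of 4.24, and at a pseudocount of 0.1, with 5.54.

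The 3 genes called without E15.5 were Rasgrf2, Cobl and Fat1, which were called in each of the 6 fits that left out an E18.5 library too. Rasgrf2 differed by 2.35 ± 0.29 (adjusted p = 2.69e-06), with changes of 0.56, 0.48, 1.38 and 3.16 from E15.5 to E18.5, and 2.22 without E15.5. Its level in NBN was 0.595, 0.759, 3.27 and 9.07 TPM on the 4 days, against 0.0688, 0.229, 0.583 and 0.0985 TPM in BP. Fat1, an atypical cadherin, differed by 1.98 ± 0.28 (adjusted p = 3.12e-05), with changes of -1.69, -0.63, 0.36 and 1.33. It was below BP at first and above it at the end, with 3.52, 7.07, 18.3 and 31.2 TPM in NBN, against 13.7, 11.6, 13.9 and 11.48 TPM in BP. Cobl, an actin nucleator of dendrites, differed by 1.92 ± 0.29 (adjusted p = 7.50e-05), with 0.732, 1.44, 4.47 and 7.87 TPM in NBN, against 0.389, 0.563, 0.625 and 0.251 TPM in BP.

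Lmo4 differed by 1.30 ± 0.20 (adjusted p = 1.16e-04), with 108, 171, 361 and 474 TPM in NBN over the 4 days, against 186, 209, 191 and 199.5 TPM in BP, so its change was negative at first and positive at the end while the BP means moved little. The inward rectifier channel gene Kcnj2 differed by 1.65 ± 0.31 (adjusted p = 0.00356). Both calls held in each fit without 1 E18.5 library and were lost without E15.5, with values of 0.94 for Lmo4 and 1.23 for Kcnj2.

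On the other side were genes that stood high in NBN at E15.5 and not at E18.5. Rgs16, a regulator of G protein signalling, differed by -1.66 ± 0.21 (adjusted p = 2.69e-06), with 89.9, 26.8, 10.5 and 4.65 TPM in NBN on the 4 days, against 30.2, 23.5, 22.2 and 13.9 TPM in BP. Lrrtm4 differed by -1.82 ± 0.34 (adjusted p = 0.00345), with 30.5, 14.2, 8.87 and 6.24 TPM in NBN, against 15.97, 14.4, 25.1 and 26.9 TPM in BP. These 2 calls held in each fit without 1 E18.5 library and were lost without E15.5, with values of -1.01 for Rgs16 and -1.28 for Lrrtm4.

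The deep-layer list held 3 of the 35 smaller differences. The corepressor gene Tle4, a layer 6 marker, differed by -1.45 ± 0.31 (adjusted p = 0.00858) and had 124.6, 70.8, 45.5 and 32.4 TPM in NBN, against 23.8, 18.9, 22.3 and 24.5 TPM in BP. Its BP level hardly moved. Zfpm2 differed by -1.56 ± 0.40 (adjusted p = 0.0480) and Nxph3, a neurexophilin gene, by -1.90 ± 0.43 (adjusted p = 0.0159), with 107, 61.4, 35.2 and 22.7 TPM of Nxph3 in NBN, against 6.80, 14.3, 12.04 and 14.48 TPM in BP. The BAF subunit gene Dpf3 differed by -2.05 ± 0.46 (adjusted p = 0.0131), with 37.6, 13.2, 7.99 and 9.05 TPM in NBN, against 7.49, 12.1, 16.2 and 29.4 TPM in BP, so its mean was lower at E18.5 than at E15.5 in NBN and higher in BP. The call of Dpf3 was lost without NBN 1 (-1.94) or BP 3 (-1.93), that of Tle4 without NBN 1 (-1.34), NBN 3 (-1.12) or BP 3 (-1.36), and those of Zfpm2 (-1.67 to -1.46) and Nxph3 (-1.97 to -1.63) in every fit that left out 1 E18.5 library other than NBN 2. All 4 were lost without E15.5, with values of -1.13 for Tle4, -1.06 for Zfpm2, -1.20 for Nxph3 and -1.19 for Dpf3.

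Of the 16 microglia and macrophage genes, 2 were called in this test, Mrc1 and P2ry12, and 14 were not. With only the libraries of the contrast 4 were called, and 13 with the replicate number as a block in them. With library weights 14 were called, and without E15.5 0. C1qa differed by 2.45 ± 0.67 (adjusted p = 0.0722), C1qc by 2.48 ± 0.67 (adjusted p = 0.0651) and Pf4 by 2.32 ± 0.68 (adjusted p = 0.103), and with the block their adjusted p were 0.0139, 0.0141 and 0.0165. Mrc1 differed by 2.43 ± 0.46 (adjusted p = 0.00345), with 0.254, 1.35, 4.84 and 11.7 TPM in NBN over the 4 days, against 0.0843, 0.351, 0.206 and 0.141 TPM in BP. Lyve1, a receptor gene of border macrophages and lymphatic vessels that is not in the list, differed by 2.63 ± 0.54 (adjusted p = 0.00680), and P2ry12, a purine receptor gene of microglia, by 1.42 ± 0.28 (adjusted p = 0.00506). From E15.5 to E18.5 the macrophage sum was 8.52 to 13.2, 16.6 to 141, 53.6 to 199 and 164.8 to 225 TPM in NBN libraries, against 6.48 to 8.84, 7.54 to 32.4, 9.18 to 19.6 and 9.47 to 10.8 TPM in BP libraries. The NBN values at E16.5 and E17.5 were spread more widely between libraries than those at E18.5.

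**Figure D5:**
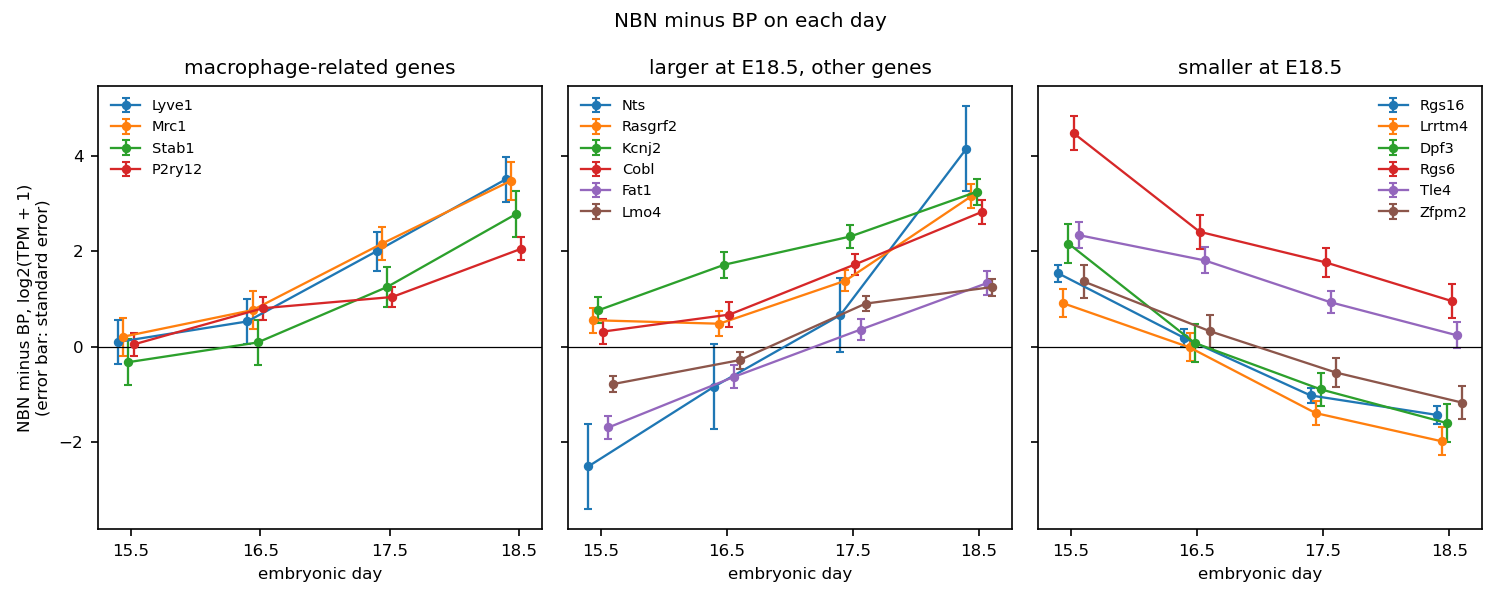
NBN minus BP on the log2(TPM + 1) scale by embryonic day, with standard errors, for genes whose difference at E18.5 was called against the mean of the earlier days. Nts runs through -2.51, -0.83, 0.66 and 4.15 and Rgs16 through 1.54, 0.18, -1.02 and -1.43 from E15.5 to E18.5.

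Eomes had changes of -2.80, -3.72, -4.86 and -5.47 from E15.5 to E18.5, and its difference from the earlier days was not called (-1.68 ± 0.49, adjusted p = 0.108). It was called with the replicate number as a block (adjusted p = 0.00254), with library weights, with only the libraries of the contrast and without E17.5. Its mean was 71.5, 31.8, 17.2 and 9.49 TPM in NBN on those days, against 482, 407, 530.4 and 450.1 TPM in BP. Of the cholesterol genes, Fdps passed the p threshold but not the size (0.84 ± 0.19, adjusted p = 0.0191), with changes of -0.15, 0.41, 1.06 and 1.28. The G2 and M phase list had 0 genes called in this test, and its median difference was -0.04.

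The genes called at E18.5 differed in length from the genes tested. Genes higher in NBN had a median genomic span of 45.0 kb, genes lower in NBN of 30.5 kb and all tested genes of 22.7 kb, from GENCODE vM21 (GRCm38), which placed 99.0%, 99.5% and 98.6% of them. A span over 100 kb was found for 33.5% of the higher, 20.9% of the lower and 14.3% of all tested genes. The median summed exon length differed less, at 4.69 kb for the higher, 4.83 kb for the lower and 4.26 kb for all tested genes. These are descriptions over genes, which are not replicates, and the release may not be the one behind the deposited values.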

How the data were processed

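RNA of 3 NBN and 3 BP libraries of E18.5 was compared, in a series of 63 libraries in 19 groups. Per the labels' protocols, libraries were made from total RNA with the TruSeq RNA v2 kit, which does not keep the strand, and sequenced as single 50-base reads, so reads of overlapping antisense genes cannot be told apart. The authors deposited TPM per gene, for which the submitters' processing notes name kallisto 0.43.0 and, as builds, GRCm38.p2 and mm10. The sources used here do not give how transcripts were summed to genes, and kallisto can divide reads between near-identical genes. The deposited TPM columns sum to 999998 to 1000002, so a rise of some genes lowers the rest, and no depth, counting error or detection floor could be given.

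The 15231 of 23078 genes that reached 1 TPM in 3 or more libraries were tested, as log2(TPM + 1). In limma 3.58.1 (R 4.3.3), 1 model with 19 group means and a variance trend was fitted, and tests were two-sided. NBN minus BP at E18.5, the same on E15.5, E16.5 and E17.5, and the difference between E18.5 and the mean of those 3 days were contrasts of that model. The procedure was tested on simulated data.

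The comparison and the 32 gene lists were chosen with earlier results of these data known. The text names the 12 largest called changes in each direction with at least 10 TPM in a group and no overlap, up to 4 called genes per list and the largest opposite one, the 6 largest differences between days in each direction with at least 10 TPM in a group at E18.5, a fixed set and 3 whole marker lists. Of 223 genes looked up by name, 57 were chosen after their values were seen, and some genes that the rule names are not reported here. Pairing was checked on deviations from group means over all tested genes. Same-numbered NBN and BP libraries correlated at 0.352, 0.326 and 0.210 and other pairs at -0.224 to -0.0921. Deviations from a group mean cancel within the group, so positive same-numbered pairs bring negative values in other pairs. The numbers, which come from the labels, were taken to pair the libraries because each same-numbered pair was over 0.1.

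Alternatives were pseudocounts of 0.1 and 5, no filter, a mean of at least 5 TPM over the series, and quantile and median-of-ratios scaling. Others were library weights, a Y-linked covariate, only the libraries of a contrast, a replicate block in those libraries, and each library left out. Leaving out each earlier day was chosen after seeing the data. Spans and exon lengths are from GENCODE vM21 (GRCm38) and promoters from RefSeq (GRCm38.p6), matched by symbol or gene ID.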

Additional observations from a re-analysis of the deposited data

Results flagged for a closer look

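The genes below stood out because the NBN minus BP change at E18.5 differed from its mean over E15.5 to E17.5, by limma's test of that difference with an adjusted p under 0.05 and a size of at least 1 on the log2(TPM + 1) scale. Among the larger values at E18.5, Nts differed by 5.05, Lyve1 by 2.63, Mrc1 by 2.43, Rasgrf2 by 2.35, Fat1 by 1.98, Cobl by 1.92, Kcnj2 by 1.65, P2ry12 by 1.42 and Lmo4 by 1.30, and these 9 stayed called when any 1 of the 6 E18.5 libraries was left out. The scavenger receptor gene Stab1 differed by 2.44 and was not called without NBN 3 (2.44) or BP 3 (2.37). Dab2, an endocytic adaptor, differed by 2.07 and was not called without BP 2 (1.93), and the kinesin gene Kif26b differed by 1.63 and was not called without NBN 1 (1.48) or BP 3 (1.51). The macrophage-related genes F13a1 (2.35) and Fcrls (2.31) lost their calls in each of the 6 fits, with values of 2.26 to 2.45 for F13a1 and 2.21 to 2.45 for Fcrls.

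Among the smaller values, Rgs16 differed by -1.66 and Lrrtm4 by -1.82, and both stayed called in the 6 fits. Rgs6, a regulator of G protein signalling, differed by -1.93 and was not called without BP 3 (-1.74). Its change at E18.5 alone was 0.96, under the size for a call, and NBN averaged 36.4, 18.4, 13.0 and 14.9 TPM from E15.5 to E18.5, against 0.677, 2.59, 2.95 and 7.26 TPM in BP. Dpf3 differed by -2.05, Nxph3 by -1.90, Zfpm2 by -1.56 and Tle4 by -1.45, with the values without single libraries given above. Stac2 differed by -1.80 and Gfap by -1.43, and neither was called without NBN 1 (-1.83 and -1.46), NBN 3 (-1.69 and -1.35), BP 1 (-1.77 and -1.43) or BP 3 (-1.69 and -1.32). The Wnt inhibitor gene Apcdd1 differed by -1.67 and lost its call in each of the 6 fits, with -1.78 to -1.52. Without E15.5 only Rasgrf2, Cobl and Fat1 of these 24 genes were called.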

How the results depend on the processing

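The counts at E18.5, 968 higher and 944 lower, were 509 and 504 at a pseudocount of 5, and 556 higher with a mean of at least 5 TPM. Under the other alternatives they stayed within 1.5 times, and leaving out a library gave 927 to 984 higher and 895 to 962 lower. The counts for E18.5 against the earlier days, 28 larger and 35 smaller, were 13 and 22 at a pseudocount of 0.1, 16 larger at a pseudocount of 5, 4 and 22 with a mean of at least 5 TPM, 151 and 70 with library weights, 3 and 0 without E15.5 and 90 and 94 without E17.5, with 12 to 26 and 13 to 48 when a library was left out; the cause was not tested. The pairing as a replicate block was fitted to only the libraries of a contrast. Without the block, those libraries gave 39 larger and 47 smaller differences, and 991 higher and 951 lower genes at E18.5. With it the counts were 90 and 73, and 992 and 953 at E18.5. The block fit changed no call of a named gene at E18.5 but moved the higher counts of 4 gene lists. It kept the 24 differences between days named above and called Eomes (adjusted p = 0.00254). It called 13 macrophage genes, against 2 as reported and 4 with the same libraries and no block. Other uncalled differences of named genes were not recomputed. Of 172 named called genes, 146 kept their call under every alternative that retained them, 26 lost it in at least 1 and 0 changed sign. A gene removed by the filter of a mean of at least 5 TPM was not scored under it, as with all 16 microglia and macrophage genes. The uncalled changes of Bcl11b and Tle4 lay at -0.0293 to 0.594 and at -0.202 to 0.573 when a library was left out, below 0 without NBN 2. The median of all genes, -0.09 as reported, was -0.04 under quantile and 0.00321 under median-of-ratios scaling. Depth is unknown, so a gene near 0 TPM may be low or missed.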
